A study of Mus musculus with 6 samples.

Results

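The genes described here encode the proteins of the cytosolic ribosome and the factors that load, drive and restrain it, measured in mouse visual cortex after the loss of input from an eye. Members were chosen by gene symbol: ribosomal proteins (Rpl, Rps) and the initiation (Eif1 to Eif6) and elongation (Eef1, Eef2) factor families, without S6 kinases, eIF2 alpha kinases and pseudogenes. The rule found 79 of the 8251 genes named on the array, 34 ribosomal proteins and 45 translation factors. It goes by name alone, so the 34 include the like-named Rpl7l1, Rpl39l, Rps27l and Rps4l, whose place in the ribosome was not checked. They were represented by 110 probe sets, and each gene is given by its brightest.

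Wild-type C57Bl6 mice (4, per the labels) had an eye removed at postnatal day 100 and were killed 4 days later. The 3 deprived arrays hold visual cortex contralateral to the removed eye and the 3 non-deprived arrays hold ipsilateral visual cortex; every animal was enucleated, and no array of animals with both eyes was analysed here. The series' design text speaks of pooled samples, and the sources used here do not say whether the 3 arrays of a group are separate pools, so p-values measure the spread between these arrays, which may be technical. In such tissue, fewer cells of a type and less RNA per cell cannot be told apart.

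A cytosolic ribosome joins a small and a large subunit, each built of ribosomal RNA and a fixed set of proteins. Initiation factors bring messenger RNA and the initiator tRNA to the small subunit: eIF2 carries the tRNA, eIF2B recharges eIF2 with GTP, eIF3 is a scaffold on the small subunit, and eIF4E, eIF4A and eIF4G bind and open the capped end of the message. Elongation factors then deliver each aminoacyl-tRNA (eEF1) and move the ribosome along (eEF2). In neurons this machinery also works in dendrites, and much of its control acts on messages already made, through eIF4E-binding proteins, eIF2 phosphorylation and eEF2 kinase; an array of messenger RNA levels does not read that control.

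Messages for the translation machinery were not called higher or lower in deprived cortex. Of 34 ribosomal protein genes 26 were bright enough to test, of 45 factor genes 40, and none of these 66 passed an adjusted p of 0.05 (limma, Benjamini-Hochberg over 7453 probe sets), where 13 probe sets in all did, 0.174% of those tested. The smallest adjusted p was 0.27 among ribosomal proteins (Rps13) and 0.85 among factors (Eif3f). The median log2 change, deprived minus non-deprived, was -0.0066 for ribosomal proteins (13 with a higher mean, 13 lower) and -0.013 for factors (19 higher, 21 lower). Over all tested probe sets the median was 0.010.

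By the looser count of an unadjusted p under 0.05, 5 of the 66 members were past it (7.58%), beside 5.09% of all tested probe sets. Of these, Rps19, Eif3f and Eif4a2 had higher deprived means, where 2.67% of all probe sets were higher at this p, and Rps13 and Eif2d had lower ones, where 2.42% were. The 5 became 3 without deprived replicate 1 (Eif3f, Rps13 and Rps19) or without deprived replicate 3 (Eif2d, Eif3f and Rps13), and Eif3f and Rps13 were past it whichever array was left out. The arrays of the groups did not overlap for 11 members (16.7%, beside 10.1% of all tested probe sets). In 4 of them every deprived array was higher (5.50% of all probe sets) and in 7 every deprived array was lower (4.59%).

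The precision of these measurements differed between the classes. The 95% interval of the log2 change lay within ±0.5, a 1.41-fold change either way, for 20 of 26 ribosomal proteins (76.9%) and 21 of 40 factors (52.5%), beside 41.8% of all tested probe sets. The median spread between arrays of a group was 0.108 log2 units (SD) for ribosomal proteins, 0.158 for factors and 0.209 for all tested probe sets. Ribosomal protein probe sets were also bright, with a median signal of 4737 units against 625 for factors and 492 for all. Log2 changes spread less at high signal in the plot of level against change. The fit's intensity trend also draws each interval toward a variance typical of its signal level. The part of signal in the precision was not tested. A log2 change beyond 0.5 was measured for 4 of the 66 members (Rps13, Eif3f, Eif4a2 and Eef1b2) and for 476 of the 7453 probe sets (6.39%), which are shares of about the same size.

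**Figure D1:**
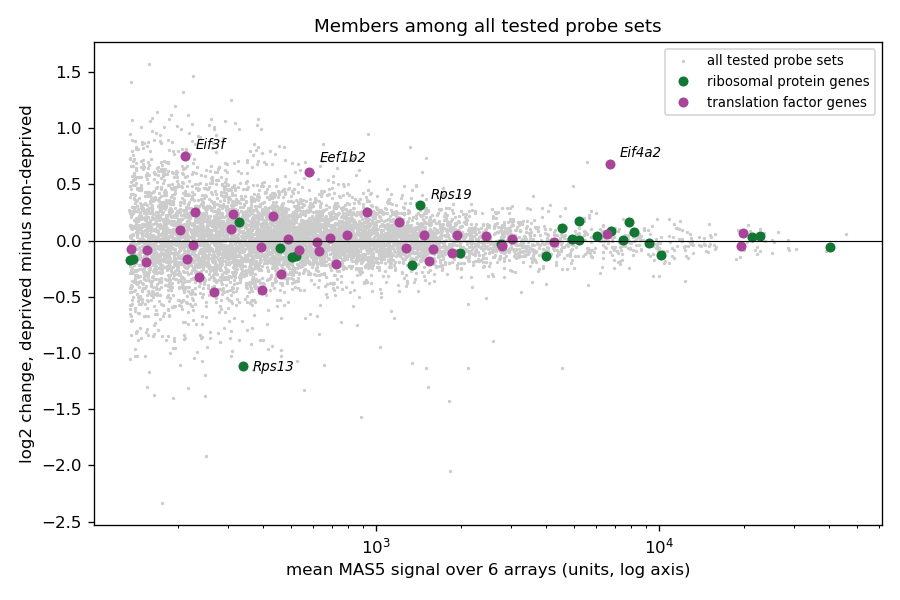
Log2 change (deprived minus non-deprived, vertical axis) against mean MAS5 signal over 6 arrays in signal units (log horizontal axis) for all 7453 tested probe sets (grey), 26 ribosomal protein genes (green) and 40 translation factor genes (purple). Most bright ribosomal protein genes lie close to 0, and Eif4a2 stands away from other genes of its brightness.

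Large-subunit proteins were represented by 17 genes, of which 13 were tested; 9 had a lower and 4 a higher deprived mean, with a median log2 change of -0.065. None had an unadjusted p under 0.05. Rplp0, the stalk protein on which elongation factors dock, read 4001, 4042 and 4469 units in the non-deprived arrays and 3693, 3853 and 3850 in the deprived arrays. Every deprived array was lower, yet the log2 change was small at -0.13 (SE 0.082, 95% interval -0.32 to 0.051, limma adjusted p = 0.97). Rpl19, a large-subunit protein, read 11058, 10439 and 10434 against 9266, 9541 and 10377. The lowest non-deprived and highest deprived arrays nearly met, and the change was -0.13 (SE 0.072, limma adjusted p = 0.97). Rpl13a, another large-subunit protein, was the third gene without overlap, 505.7, 515 and 574 units against 499.7, 434 and 505.4, which almost touch. Every deprived array was thus lower for 3 of the 13 tested genes (23.1%), beside 4.59% of all tested probe sets.

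Rpl8, a core protein of the large subunit, went the other way without separating: 8381, 7092 and 6751 units against 8046, 8393 and 8364 (log2 change 0.16, SE 0.090, limma adjusted p = 0.97). Its non-deprived replicate 1 lay among the deprived arrays. Rpl41, the shortest of the ribosomal proteins, was measured only by an _f probe set, which can share probes with related transcripts; it read 43805, 37348 and 41909 against 37589, 41047 and 39561 (-0.056, SE 0.071). All 3 deprived arrays lay within the non-deprived range. Among the others, Rpl6 had a log2 change of 0.0088 (95% interval -0.17 to 0.19), and the large-subunit values ran from -0.17 (Rpl38) to 0.17 (Rpl37a).

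Small-subunit proteins (17 genes, 13 tested) had 9 higher and 4 lower deprived means and a median of 0.036, and they held the 2 ribosomal proteins with an unadjusted p under 0.05. Of these 1 was higher and 1 lower, beside 2.67% and 2.42% of all tested probe sets. The difference between the subunits was not tested. Rps19, needed for maturation of the small subunit's RNA, read 1202, 1286 and 1342 units in the non-deprived arrays and 1531, 1490 and 1764 in the deprived arrays. Every deprived array was above every non-deprived array, by 1.24-fold on average (log2 change 0.31, SE 0.11, 95% interval 0.069 to 0.56), with a limma adjusted p of 0.95. It kept the sign in all 15 alternatives run for it, at 0.24 to 0.36.

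Rps13, a protein of the small subunit, had the largest difference among tested members. Its only probe set carries the _r suffix, given to sets designed with fewer constraints. It read 623, 471 and 329 units in the non-deprived arrays and 196, 183 and 234 in the deprived arrays. The non-deprived arrays ranged widely, yet each was above every deprived array. The deprived mean was 2.17-fold lower on the log2(signal + 16) scale used for every fold and change here (log2 change -1.12, SE 0.24, 95% interval -1.66 to -0.57), with a limma adjusted p of 0.27. That p ran from 0.14 to 0.70 over 14 alternatives, the lowest without non-deprived replicate 3.

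The other 11 tested small-subunit genes had log2 changes from -0.21 (Rps27) to 0.16 (Rps29). Rps4x, encoded on the X chromosome, read 6344, 5844 and 5708 against 6133, 6120 and 6159 (log2 change 0.042, 95% interval -0.12 to 0.21). Rps18 read 9543, 9489 and 8736 against 8778, 9235 and 9415 (-0.017, 95% interval -0.18 to 0.14). Rps3, which sits at the entry of the message into the ribosome, had a change of 0.0041 (95% interval -0.22 to 0.23). In each of these 3 genes the ranges of the groups overlap, and no interval reaches beyond 0.23 from 0.

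**Figure D2:**
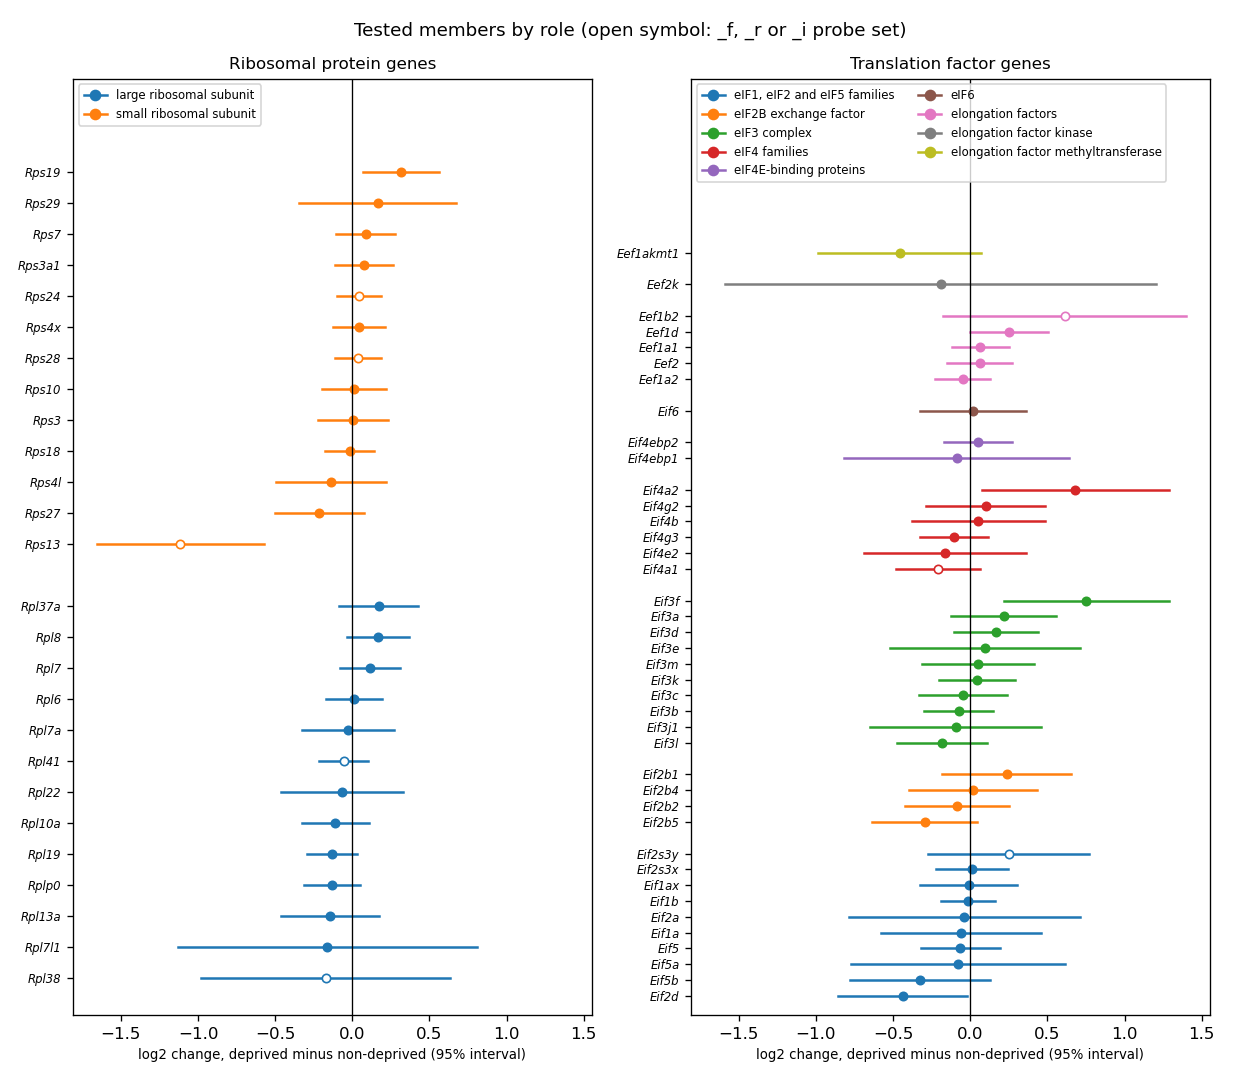
Log2 change (horizontal axis, deprived minus non-deprived) with its 95% interval for the 26 tested ribosomal protein genes (left) and 40 tested factor genes (right), coloured by role; open symbols mark _f, _r or _i probe sets. Intervals of Rps13, Rps19, Eif3f, Eif4a2 and Eif2d leave out 0 before adjustment, and those of the others include it.

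Among initiation factors, the eIF3 complex was measured by 10 genes, 6 higher and 4 lower, with a median log2 change of 0.047. Eif3f, an eIF3 subunit of the MPN-domain kind, read 175, 126 and 162 units in the non-deprived arrays and 271, 299 and 241 in the deprived arrays. All deprived arrays were higher, 1.69-fold on average (log2 change 0.75, SE 0.24, 95% interval 0.22 to 1.29, limma adjusted p = 0.85). Its mean signal of 212.4 is not far above the 134.7 at which testing began, so the level itself is imprecise. Eif3a, the largest subunit, was also without overlap, 424, 402 and 369 against 457, 426 and 518, by a narrow margin (0.22, SE 0.15). Eif3b and Eif3c, subunits conserved from yeast, had changes of -0.073 (SE 0.10) and -0.047 (SE 0.13), and both 95% intervals include 0.

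Of the eIF4 families, 6 of 9 genes were tested, 3 higher and 3 lower. Eif4a2, the RNA helicase form that is abundant in brain, read 7784, 5301 and 2995 units in the non-deprived arrays and 8925, 7205 and 7972 in the deprived arrays. The deprived arrays were alike while the non-deprived arrays ranged widely, and non-deprived replicate 1 lay within the deprived range. The log2 change was 0.68 (SE 0.27, 95% interval 0.076 to 1.29, limma adjusted p = 0.95), 0.32 without non-deprived replicate 3 and 1.00 without non-deprived replicate 1. Its paralogue Eif4a1, on an _r probe set, read 783, 772 and 773 against 700, 695 and 612 (-0.21, SE 0.12, limma adjusted p = 0.97). Here the deprived arrays were all lower, opposite in sign to Eif4a2; the difference between the paralogues was not tested.

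Non-deprived replicate 3, which held the lowest Eif4a2 signal, also stood apart in 18S ribosomal RNA, the RNA of the small subunit, as seen by the array's control probe sets. The 3′ control read 2689 units there and 661 to 981 in the other arrays, the 5′ control 1978 against 169 to 892, and the middle control 586 against 44.9 to 298. The guanine exchange subunit Eef1b2 was low on the same array: 571, 659.5 and 216 units in non-deprived arrays against 805, 699 and 542 in deprived arrays, on an _r probe set (log2 change 0.61, SE 0.35). Without that array the Eef1b2 change was 0.13. The part of the 18S signal in these 2 values was not tested. Actin and Gapdh 3′ to 5′ signal ratios on that array, 1.28 and 1.00, lay within those of the other arrays (1.26 to 1.63 and 0.940 to 1.10).

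Across the classes as a whole no array departed by much. The median ribosomal protein gene lay 0.061 above its mean over arrays in non-deprived replicate 1, and between -0.045 and 0.018 in the other 5 arrays. The median factor gene lay 0.067 above in that same array and between -0.027 and 0.0028 in the others. Non-deprived replicate 1 was the highest array for both classes, while the median over all tested probe sets was 0.00084 there.

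**Figure D3:**
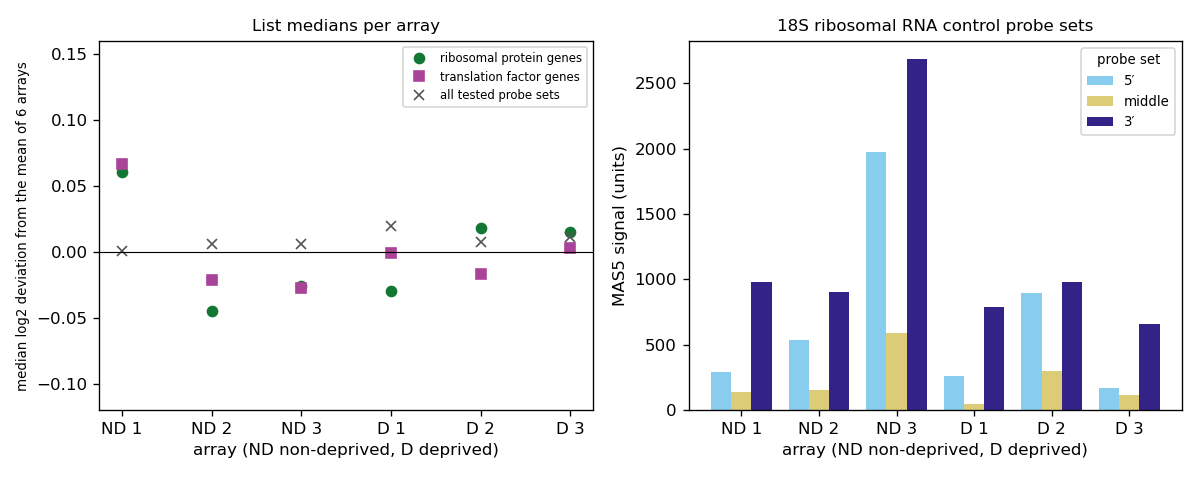
Left, the median over genes of the log2 deviation from each gene's mean over 6 arrays, for ribosomal protein genes, translation factor genes and all tested probe sets; right, MAS5 signal (units) of the 5′, middle and 3′ 18S ribosomal RNA control probe sets, per array. Non-deprived replicate 1 is highest for both gene classes, and non-deprived replicate 3 is highest in 18S signal, at 2689 units for the 3′ set.

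The eIF2 axis, through which stress signals slow initiation, was measured in part. Eif2d, which can place initiator tRNA without eIF2, read 493, 505 and 377 units in non-deprived arrays and 315, 292 and 396 in deprived arrays. The highest deprived array lay above the lowest non-deprived array (log2 change -0.44, SE 0.19, 95% interval -0.85 to -0.019, limma adjusted p = 0.95). A second Eif2d probe set, too dim to test, gave 0.13. Eif2b5, the catalytic subunit of eIF2B, read 503, 519.5 and 501 against 357, 422 and 461. Its deprived arrays were all lower, by 1.23-fold (-0.29, SE 0.15, limma adjusted p = 0.97), and its dimmer probe set gave -0.16. The other eIF2B subunits had changes of 0.24 (Eif2b1), -0.086 (Eif2b2) and 0.020 (Eif2b4), and the 95% intervals of all 4 subunits include 0. Eif2s3x, the gamma subunit of eIF2, had 0.014 (95% interval -0.22 to 0.25), and Eif2s1, the subunit that is phosphorylated, was not analysed here.

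Over the eIF1, eIF2 and eIF5 families, 8 of the 10 tested genes had lower and 2 higher deprived means, with a median of -0.049. Eif5b, which joins the subunits, illustrates the uncertainty: its brighter probe set read 265, 278 and 256 against 232, 202 and 195, all lower, while its other probe set had a change of 0.54 (SE 0.37) in the opposite direction. Eif5a, known for helping the ribosome through proline stretches, read 121, 154 and 146 against 152, 129 and 115 (-0.078, SE 0.31), close to the limit for testing. Eif6, which keeps free large subunits from joining, had 0.019 (95% interval -0.32 to 0.36).

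Restraints on translation showed no difference beyond their spread, with unequal precision. Eif4ebp2, the main eIF4E-binding protein of brain, read 1966, 1889 and 1829 units against 1881, 1867 and 2145 (log2 change 0.049, SE 0.098, 95% interval -0.17 to 0.27). Eif4ebp1 read 113, 156 and 216 against 129.5, 181 and 134 (-0.087, 95% interval -0.82 to 0.64). Eef2k, the kinase that inactivates eEF2 and is driven by calcium in neurons, read 143, 62.5 and 279 against 117, 279.5 and 47.2 (-0.19, 95% interval -1.59 to 1.21). That interval spans more than a doubling either way, so these arrays say little about Eef2k. The cap-binding protein Eif4e was too dim to test, at 137, 146 and 159.5 units against 45.2, 162 and 105.

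Of the elongation factors, both eEF1A genes and Eef2 had log2 changes within 0.065 of 0. Eef1a1, the widespread carrier of aminoacyl-tRNA, read 21007, 19980 and 17278 units in non-deprived arrays and 19383, 21424 and 19994 in deprived arrays. Eef1a2, its neuron and muscle counterpart, read 21218, 19060 and 19039 against 17376, 20615 and 19408. The groups overlapped for both, with log2 changes of 0.065 (SE 0.083, 95% interval -0.12 to 0.25) and -0.049 (SE 0.080, 95% interval -0.23 to 0.13). Eef2, the translocase, read 6782, 6770 and 5675 against 6387, 7224 and 6440 (0.063, 95% interval -0.15 to 0.27). Eef1d, a guanine exchange subunit that recharges eEF1A, was higher in every deprived array, 996, 1031 and 1019 units against 861, 912 and 782, by 1.19-fold (0.25, SE 0.11, limma adjusted p = 0.95). Eef1akmt1, a methyltransferase of eEF1A that the symbol rule also takes in, had -0.46 (SE 0.24, limma adjusted p = 0.97).

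**Figure D4:**
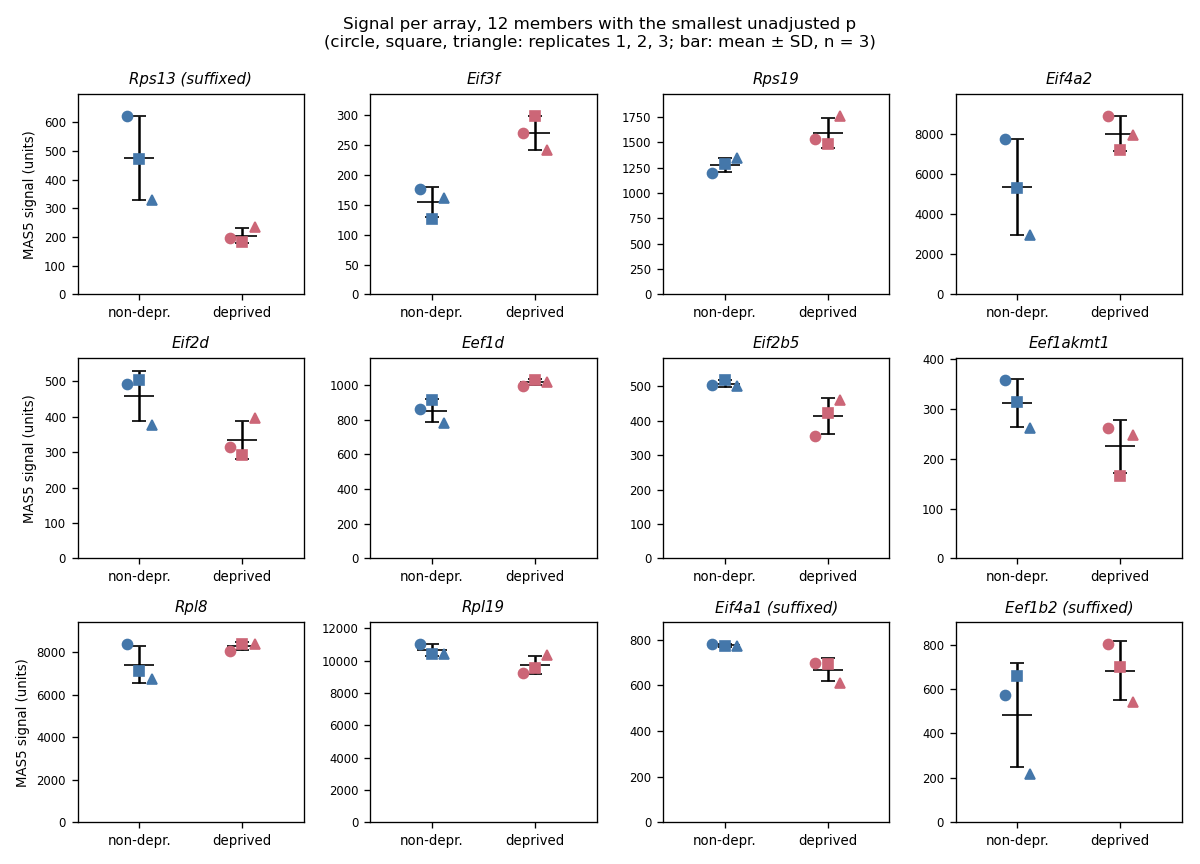
MAS5 signal (units, axes from 0) on each array for the 12 tested members with the smallest unadjusted p, with mean ± SD (n = 3 arrays per group) and replicates 1, 2 and 3 as circle, square and triangle. Rps13 separates the groups with a wide non-deprived spread, Rps19, Eif3f and Eef1d separate them upward in deprived cortex, and Eif4a2 overlaps.

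Some members could not be tested because their mean signal over 6 arrays was under 134.7 units: 8 ribosomal proteins and 5 factors. Rps15, a small-subunit protein, differed most among these, with 86.8, 142 and 96.4 units in non-deprived arrays and 11.3, 6.7 and 7.9 in deprived arrays. Every deprived array was lower (log2 change -2.32), and when every probe set was tested, dim ones included, limma gave an adjusted p of 0.053, still above the threshold. Its fold depends on how dim signals are treated, and these values carry no detection call. Values for the other 12 ran from -0.58 (Rpl32 and Eif4e) to 0.30 (Eif2s2), with a limma adjusted p of at least 0.98 when dim ones were included. Eif2s2 has another untested probe set of nearly the same brightness (mean 83.4 against 84.7 units), which gave -0.65. The dimmer set of Eif4e gave 0.35, also opposite in sign. Rps20, Rps14, Rpl39, Rpl35a, Rpl39l, Rps27l, Eif4h, Eif4enif1 and Eef1g complete the untested genes.

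A gene's probe sets did not always give like values. Of 14 members with more than 1 tested probe set, 4 had log2 changes more than 0.5 apart. Rps4x gave 0.042 on its brightest set and -0.84 (SE 0.46) on a dim _r set. Rpl19 gave -0.13 and 0.57 (SE 0.56), Rps24 gave 0.043 and -0.58 (SE 0.27), and Eif5b is described above. In all 4 genes the dimmer set had the wider interval, and no such set passed the adjusted threshold. By contrast, the 3 probe sets of Rps28 ranged only from -0.029 to 0.085. The brightest Rps24 set is an _r set whose source sequence is also listed for Rpl7, and that of Rpl7a is listed for Surf1 and Surf2 too, so these values may not belong to the named gene alone.

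**Figure D5:**
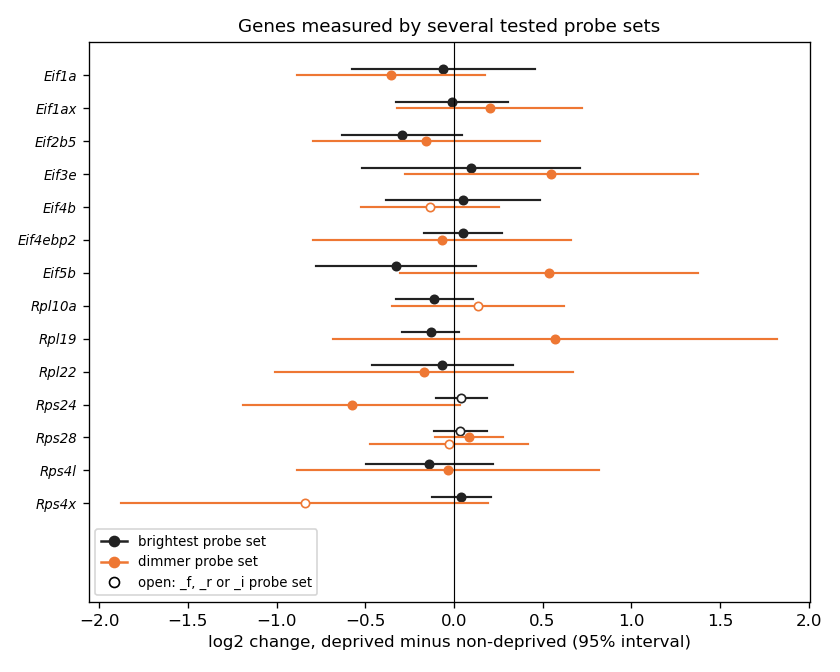
Log2 change (deprived minus non-deprived) with 95% interval for each tested probe set of the 14 members that have several; black is the brightest set of a gene, orange a dimmer set, and open symbols are _f, _r or _i sets. Dimmer sets of Rps4x, Rpl19, Rps24 and Eif5b lie more than 0.5 from the brightest.

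Genes set apart by an _f, _r or _i brightest probe set numbered 7 ribosomal proteins (5 tested) and 3 factors (3 tested). Without them the median log2 change was 0.0041 over 21 ribosomal proteins and -0.015 over 37 factors, with no call in either class. The largest change among the 21 was then Rps19, at 0.31. Those 21 leave out Rps24, whose dimmer set has no such suffix and gave a larger change of -0.58. It read 222, 194 and 228 units in non-deprived arrays and 129, 179 and 114 in deprived arrays, every deprived array lower (limma adjusted p = 0.97).

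Many messages of the translation machinery begin with a 5′ terminal oligopyrimidine tract, a run of C and T at the start through which growth signals control their translation; it is a feature the symbol rule did not use. RefSeq start sites (GRCm38.p6) were found for 64 of the 79 members, and the 20 bases before and 20 after each start were searched, on the transcribed strand only, for a run of 8 or more C or T. A gene counts where any of its listed starts holds the run. Shorter or interrupted runs were not counted, so a gene without the run may still have a tract. It was present for 11 of 27 ribosomal proteins (40.7%) and 11 of 37 factors (29.7%). Among all 27025 genes with a RefSeq start it was present for 18.4%. That set holds genes whether or not they are on the array, and it is also the set called all genes below. Shares for the genes tested here were not worked out. Per listed start the shares were 27.59% for members and 16.05% for all. The ETS-factor core, CGGAAG or its reverse complement CTTCCG, searched on both strands over 250 bases before and 50 after the start, was present for 60.9% of members and 18.8% of all genes. RefSeq starts can be off by some bases, and a match is a description of letters, not a working element.

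The windows below set the members with the smallest p beside some with little change in mean. Those shown, Rps18, Rpl7a, Eef1a1 and Eef1a2, were picked by hand and all carry a run. Their log2 changes ran from -0.049 (Eef1a2) to 0.065 (Eef1a1). Rpl7a, at -0.027, was not steady between arrays. Its spread between arrays of a group was 0.206 log2 units (SD), against a median of 0.108 for ribosomal proteins. Rps3, Rps4x, Rps28 and Eef2 also changed little in mean and have no run at any listed start. The choice shown therefore does not tie the run to a small change. Capitals mark the C and T run, and the start follows the first 20 bases of each window.
Eif3f, chr7:108934395-108934434, plus strand: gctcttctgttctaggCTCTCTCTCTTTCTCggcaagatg
Rps18, chr17:33955646-33955685, minus strand: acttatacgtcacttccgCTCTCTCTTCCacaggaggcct
Rpl7a, chr2:26910787-26910826, plus strand: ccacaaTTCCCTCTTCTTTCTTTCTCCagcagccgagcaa
Eef1a1, chr9:78481705-78481744, minus strand: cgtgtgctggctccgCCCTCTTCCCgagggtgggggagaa
Eef1a2, chr2:181156996-181157035, minus strand: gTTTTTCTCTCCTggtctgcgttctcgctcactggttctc
Rps19, chr7:24884572-24884611, plus strand: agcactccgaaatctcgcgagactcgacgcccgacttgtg
Rps13, chr7:116334171-116334210, minus strand: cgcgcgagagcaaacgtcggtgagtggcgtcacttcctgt
Eif4a2, chr16:23107448-23107487, plus strand: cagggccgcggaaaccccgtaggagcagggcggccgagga
Eif2d, chr1:131153187-131153226, plus strand: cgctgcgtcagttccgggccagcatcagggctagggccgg

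Eif3f and Rps18 carry similar runs across the start, of 15 and 11 bases, and their log2 changes were 0.75 and -0.017. Rps19, Rps13, Eif4a2 and Eif2d have no such run at any listed start. In Eef1a1 the run crosses the start, and in Eef1a2 it lies upstream of it. The 17 tested members with a run had a median change of -0.027 (7 higher, 10 lower) and the 38 without had -0.013 (18 higher, 20 lower). Among ribosomal proteins the medians were -0.079 over 8 with a run and 0.0064 over 14 without, and among factors 0.014 over 9 and -0.027 over 24, opposite in order; these differences were not tested.

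Other genes of protein synthesis were read from lists drawn up by name, and none of their members passed the adjusted threshold. Among cytosolic aminoacyl-tRNA synthetases, which charge tRNAs, 20 were tested and 3 had an unadjusted p under 0.05, all higher, where 2.67% of all tested probe sets were higher at this p; the list median was 0.036. Vars, for valine, read 317, 361 and 298 units against 563, 557 and 474, clear of each other (log2 change 0.68, SE 0.16, limma adjusted p = 0.35). Yars, for tyrosine, read 497, 752 and 505 against 828, 851 and 817 (0.52, SE 0.17, limma adjusted p = 0.88). Every deprived array was higher for both.

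Upstream of the ribosome, 11 genes of mTOR and MNK signalling had a median of -0.032. Ddit4, an inhibitor of mTOR, read 453, 385 and 313 units against 543, 657 and 672 (0.69, SE 0.17, limma adjusted p = 0.50), and Mtor itself had -0.20 (SE 0.11). The S6 kinase genes Rps6kb2 and Rps6kc1 had 0.55 (SE 0.38) and -0.043 (SE 0.22). Of the eIF2 alpha kinases only Eif2ak1 was bright enough to test (-0.050, SE 0.12), and of the ribosomal proteins with other names only Rpsa (-0.027, SE 0.093). Among the dim kinases, Eif2ak2 read 87.6, 33.5 and 28.0 units against 126.8, 130.0 and 101.6, with every deprived array higher (log2 change 1.15). Every deprived array was lower for Eif2ak3 (-0.25), and the groups overlapped for Eif2ak4 (-0.32). These dim values were not tested. Poly(A) binding and termination genes had a median of 0.031 over 9 (Pabpc2 -0.33, SE 0.23; Abcf1 -0.097, SE 0.11).

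Ribosome biogenesis genes had a median of 0.100 over 20 tested genes, none with an unadjusted p under 0.05; Nop10 had -0.15 (SE 0.088) and the nucleolar chaperone Npm1 0.18 (SE 0.13). Mitochondrial ribosomal proteins and factors, which serve a separate ribosome, had 0.054 over 58, of which 37 had a higher and 21 a lower mean. Mrps18a, on an _r probe set, had 0.33 (SE 0.13) and Mrps36 -0.48 (SE 0.22), both with a limma adjusted p of 0.95. Nascent-chain and signal recognition particle genes had 0.0030 over 13 (Ssr1 -0.32, SE 0.18; Ssr3 0.13, SE 0.12).

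Log2 signals of array pairs correlated across probe sets at 0.950 to 0.963. Neuronal markers were bright: all 7 measured of 8 listed were tested, with a mean signal of 19943 for Snap25. Their summed signal was 32381 to 35897 units in non-deprived and 32008 to 35992 in deprived arrays. Summed markers of astrocytes (5 of 6 measured) ran from 10914 to 11997 and from 9290 to 11081, of oligodendrocytes (5 of 6) from 9586 to 10459 and from 9677 to 11091, and of microglia (6 of 6) from 5940 to 6685 and from 6267 to 6878. Endothelial markers (5 of 5) ran from 1095 to 1162 and from 1009 to 1272, and those of red blood cells (3 of 4) from 4653 to 6012 and from 4126 to 5938. Cnp, Tek and Alas2 were too dim to test. The groups overlapped in every marker sum, in which the brightest markers weigh most. No single marker passed the adjusted threshold. Of 5 tested astrocyte markers 1 was lower at a limma unadjusted p under 0.05, beside 2.42% of all tested probe sets. The groups' arrays did not overlap for 1 of 7 neuronal markers (lower), 1 of 6 microglial and 1 of 4 tested endothelial markers (both higher), beside 10.1% of all tested probe sets. The part of cell composition in the values above was not tested.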

How the data were processed

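The authors deposited a table of 12488 probe sets on 6 arrays as linear signal intensity. The submitters' processing notes give MAS5 as the tool, and its settings are not given in the sources used here. All arrays had a 2% trimmed mean of 500.3 as deposited. The 66 control probe sets were set aside, and the 7453 in the top 60% of mean signal were tested on log2(signal + 16), which makes changes of dim genes smaller, with limma 3.58.1 in R 4.3.3 (lmFit, eBayes with intensity trend, two-sided, group only, p-values adjusted by Benjamini-Hochberg over all 7453). SE and 95% intervals come from that fit, and arrays are always listed as replicates 1, 2 and 3. The number of arrays (3 per group) limits precision, and no detection calls were used. The fit was also run on simulated data with independent noise on each array. Such data cannot speak to pooling or to effects of an array, and no result here rests on them.

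Names came from GEO's platform annotation; all 110 member probe sets matched NCBI RefSeq (GRCm38.p6) by gene ID. Members named by rule were the 12 with the smallest p, the 4 brightest of each class and a fixed list of 14 regulators and core genes. Their values on every array are written in full, except for Rps24, Rps28 and Eef1akmt1, which are given only by a change. Rpl3, Rps6 and Eif2s1 of the fixed list had no probe set with 1 symbol and are not analysed here. Rps15, Rpl13a, Rps4x, Rps18, Rps3, Eif3a, Eif5b and the other members given only by a change were chosen after their values were seen. Related lists give the 2 genes with the smallest p, and the dim eIF2 alpha kinases were added after their values were seen. Members and lists were chosen with earlier results of these data known. Alternatives were other scalings, pseudocounts, filters, the replicate block, other choices of probe set, eBayes without trend and leaving out each array.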

Additional observations from a re-analysis of the deposited data

How the results depend on the processing

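No ribosomal protein or factor gene passed the threshold under any of the 16 alternatives. The median log2 change ranged from -0.028 to 0.065 for ribosomal proteins, between those without non-deprived replicate 3 and without non-deprived replicate 1; the array left out was the only choice to move it by more than the 0.044 SD between arrays. For factors it ranged from -0.038 to 0.019, and was -0.032 to 0.019 with an array left out. Of 332 values for 23 named genes, 322 kept their sign and 10 changed it, all uncalled; 14 genes kept their sign throughout. Calls over all probe sets numbered 7 to 10 with an array left out, against 13. With the replicate block there were 10, and 0 members were called, with medians of -0.0066 and -0.013. Same-numbered arrays did not deviate together (correlations of 0.0030, 0.049 and -0.020 across probe sets), so the number was not taken as a pairing. Such correlations cannot show whether deprived and non-deprived arrays hold cortex of the same animals. The number of members with an unadjusted p under 0.05 ranged from 3 to 5, an alternative added after seeing the data.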

Other observations

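Array probe sets that list several gene symbols, among them a ribosomal protein or factor, were left out of the lists because such a set can read pseudogenes or paralogues as well; there were 40, of which 36 were tested. The median log2 change was 0.0013, with 18 higher and 18 lower, from -0.22 to 0.41. No set passed the threshold, the smallest limma adjusted p being 0.95, and 0 were past an unadjusted 0.05. The groups' arrays did not overlap for 2 of the 36 (5.56%), and 27 (75.0%) had a 95% interval within ±0.5.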
